A study of Homo sapiens with 6 samples.

Results

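Integrins and laminin chains were examined as a family of 35 genes out of 64253 in the count tables, comprising 17 integrin alpha chains, 8 integrin beta chains and 10 laminin chains. The genes were taken by symbol with no cutoff on a measured value, but earlier results of these data were known when the family was chosen. Each of the 35 symbols matched 1 Ensembl gene on the primary chromosomes. RNA was sequenced from PC-3 cells, an established line from a metastatic, castration-resistant human prostate cancer. One group of 3 samples carried a lentiviral short hairpin RNA (shRNA) against CdGAP (shCdGAP) and the other group of 3 carried a control shRNA (shCon). According to the methods, shCdGAP PC-3 cells were puromycin-selected and grown from single cells into clones, which is not stated for the control cells, so an effect of CdGAP depletion and a difference between one clone and the control cells cannot be told apart. CdGAP, encoded by ARHGAP31, is a GTPase-activating protein that switches off Rac1 and Cdc42, the small GTPases that drive membrane protrusion at sites of integrin adhesion.

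Integrins are membrane receptors made of 1 alpha and 1 beta chain, which join the extracellular matrix outside the cell to actin or intermediate filaments inside it. The alpha chain largely sets the ligand. ITGA3, ITGA6 and ITGA7 make laminin receptors, ITGA1, ITGA2, ITGA10 and ITGA11 collagen receptors, and ITGA5, ITGA8, ITGAV and ITGA2B receptors for the RGD motif of fibronectin, vitronectin or fibrinogen. Laminins are cross-shaped trimers of 1 alpha, 1 beta and 1 gamma chain that build the sheet of the basement membrane. In normal prostate the basal epithelial cells anchor to laminin through the ITGA6-ITGB4 receptor in hemidesmosomes, and loss of ITGB4 is a known feature of invasive prostate carcinoma.

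The libraries held 34011175 to 43154039 counts in shCdGAP cells and 33182796 to 42786971 in shCon cells. The headers of the count tables set the counting to read pairs, whereas the methods name a single-read kit, and a count is called a read here. Levels are given as CPM, the counts of a gene per 1000000 of the scaled library total. ARHGAP31 was at 26.4, 27.1 and 26.9 CPM in the shCdGAP libraries against 58.9, 60.6 and 58.2 CPM in the shCon libraries. The ratio of the means was 0.453. The paper reports a larger reduction of CdGAP in shCdGAP PC-3 cells, for mRNA by qPCR and for protein by immunoblot. The cause of this difference was not tested. Replicate 2 of shCdGAP stood apart from the other libraries of its group, with a chi-square per degree of freedom of 26.75 and 32.63 against replicates 1 and 3, which differed from each other by 3.17. Pairs of shCon libraries differed by 2.54 to 6.75. The epithelial markers KRT8 and KRT18 were at 192 and 270 CPM in shCdGAP cells and at 185 and 253 CPM in shCon cells, while the prostate luminal marker KLK3 had 0 reads in every library. Of the leukocyte markers, 4 of 7 had at most 5 reads in any library, PTPRC and CD3E among them, and of the 2 that could be tested CD68 was called higher (1.23 against 0.418 CPM) and LYZ lower (0.0655 against 0.594 CPM). The 7 together lay between 1.47 and 1.65 CPM in shCdGAP and between 0.977 and 1.33 CPM in shCon libraries. The 7 markers of epithelial carcinoma lines were all read and summed to 2077 to 2486 CPM and 1359 to 1410 CPM, but this list includes VIM, a mesenchymal filament gene, which alone was at 1148 CPM in shCdGAP and 627 CPM in shCon cells. Of the same list EPCAM and KRT19 were called higher and 0 genes were called lower, while 1 gene was lower without overlap of the groups. The call of KRT19 rested on shCdGAP replicate 2. Without it the log2 fold change was 0.79 for KRT19, below the limit of 1 for a call, and 1.3 for EPCAM. With all 6 libraries, 3 of the 7 were higher at an adjusted p-value under 0.01 and 0 were lower by edgeR. CDH1, the gene of E-cadherin, and CLDN7 thus did not pass. Without shCdGAP replicate 2 the log2 fold change was -1.09 for CDH1 and -0.37 for CLDN7, but this fit leaves out spread observed within the group. The paper reports a decrease of CDH1 RNA and protein in shCdGAP cells. The 5 endothelial markers summed to 5.96 to 13.2 CPM and 10.2 to 11.9 CPM. Summed over 6 genes, fibroblast markers lay between 65.8 and 81.3 CPM in shCdGAP libraries and between 19.5 and 21.1 CPM in shCon libraries. Most of this sum was COL1A1, which alone was at 57.1 CPM in shCdGAP and 17.99 CPM in shCon cells. All 4 fibroblast markers that could be tested, COL1A1, PDGFRA, PDGFRB and LUM, were called higher, while DCN and THY1 had at most 5 reads in any library. The part of other cells in the results was not tested. In bulk RNA, fewer cells that express a gene and less RNA per cell cannot be told apart.

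Of the 35 genes, 27 had enough reads to be tested by edgeR's quasi-likelihood test, with Benjamini-Hochberg adjustment over all 16439 genes tested. A gene was called when its adjusted p-value was under 0.01 and its log2 fold change (shCdGAP over shCon) was above 1 or below -1. In this way 4 members were called higher, ITGA1, ITGA4, ITGA5 and ITGB6, and 2 were called lower, ITGB2 and ITGB4. ITGA4 passed the filter on low counts only through the shCdGAP libraries, so a difference was built into its place in these counts and those below. With at least 10 reads required in every library ITGA4 was not tested and 3 members were called higher. Across all genes tested, 8.56% were called higher and 4.19% lower. At an adjusted p-value under 0.01 with no limit on the fold, 8 members were higher and 8 lower, together 59.3% of those tested, against 24.1% higher, 22.0% lower and 46.2% in either direction over all genes, and 11 did not pass. In 22 of the 27 tested members the groups did not overlap, 11 with shCdGAP higher and 11 with it lower, and over all genes this held for 34.4% and 32.7%, or 67.0% in all. The median log2 fold change of the 27 members was -0.04 and that of all genes 0.01. All 6 calls fell on integrin chains, where 18 of 25 were tested, and none on the 9 tested laminin chains, of which 7 passed the adjusted p-value alone; the difference between the families was not tested.

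**Figure D1:**
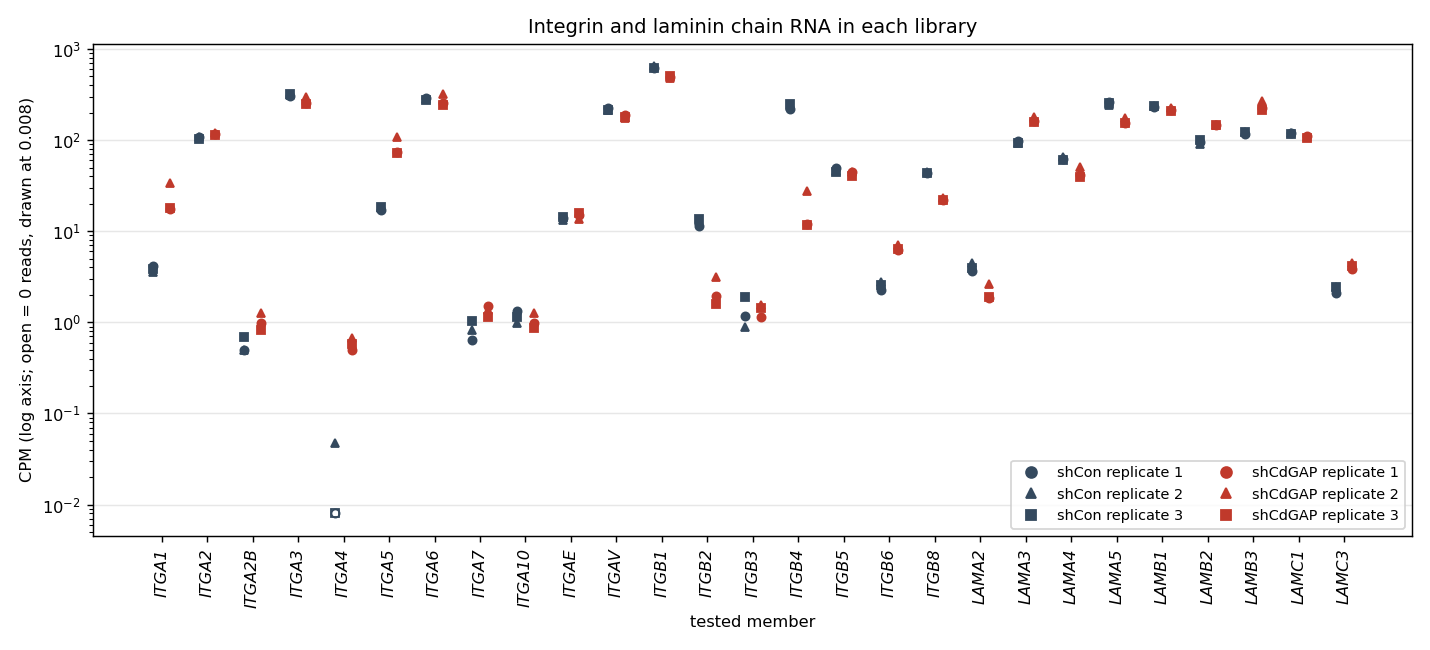
CPM (log axis) of each tested integrin and laminin chain in the 3 shCon (dark) and 3 shCdGAP (red) libraries, with a symbol for each replicate number. ITGB4 lies between 221 and 249 CPM in shCon and between 11.7 and 27.4 CPM in shCdGAP libraries, and the triangle of shCdGAP replicate 2 stands apart for ITGA1, ITGA5, ITGB2 and ITGB4.

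Among the alpha chains that bind collagen or fibronectin, ITGA5 and ITGA1 were higher in shCdGAP cells. ITGA5 (ENSG00000161638, GRCh38 chromosome 12 from 54395261 to 54419460, minus strand) pairs with ITGB1 as the classical fibronectin receptor. It was at 74.7, 108 and 73.1 CPM in shCdGAP replicates 1, 2 and 3 and at 16.9, 17.9 and 18.3 CPM in shCon replicates. The shCdGAP libraries all lay well above the controls, with replicate 2 the highest. The means were 85.3 ± 19.7 and 17.7 ± 0.688 CPM (SD, n = 3 each), and the log2 fold change came to 2.27, SE 0.167 (edgeR, adjusted p = 4.27e-05), with values from 2.06 to 2.36 on omitting single libraries.

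ITGA1 (ENSG00000213949, chromosome 5 from 52787896 to 52959210, plus strand) encodes a collagen receptor chain with a preference for type IV collagen, the collagen of basement membranes. Its levels were 17.4, 33.6 and 18.1 CPM in shCdGAP libraries and 4.17, 3.58 and 3.81 CPM in shCon libraries. Replicate 2 again held the highest value, and the groups did not overlap. The log2 fold change was 2.58, SE 0.306 (edgeR, adjusted p = 0.000520) and 2.19 without shCdGAP replicate 2. The gene shares 5.6% of its exonic bases with other genes on the same strand, where reads are not counted. ITGA2, the other abundant collagen-binding alpha chain, was at 116 ± 3.12 CPM in shCdGAP and 106 ± 3.69 CPM in shCon cells (SD, n = 3 each), with an adjusted p of 0.0218 by edgeR. ITGA10 did not separate the groups, at 1.04 ± 0.200 and 1.16 ± 0.170 CPM (SD, n = 3 each).

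ITGA4 (ENSG00000115232, chromosome 2 from 181457202 to 181536187, plus strand), whose product binds fibronectin and VCAM1 and is best known from leukocytes, was called at very low levels. It had 20, 29 and 20 reads in shCdGAP libraries and 0, 2 and 0 reads in shCon libraries. The gene passed the filter on low counts only through the shCdGAP libraries, so that a difference was built into its being tested. The ratio of read rates was 34.1, with an exact 95% interval from 9.10 to 287 that covers counting error only.

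The 4 members called higher have an entry in the RefSeq table of gene starts (25 of the 35 members do), and the bases before each RefSeq start, up to the first base of any annotated exon, are shown because these are the upstream sequences of the members that rose. Build GRCh38.p14 was used, and each is written 5′ to 3′ on the gene's own strand. ITGA5 covers chr12:54419461-54419516 (minus strand), ITGA1 chr5:52787666-52787895 (plus), ITGB6 chr2:160200314-160200522 (minus) and ITGA4 chr2:181457136-181457201 (plus). The windows of ITGA5, ITGA1 and ITGA4 end just before the gene as annotated for the counts, whereas that of ITGB6 lies inside the annotated gene, ending 71574 bases downstream of its outermost start.
ITGA5: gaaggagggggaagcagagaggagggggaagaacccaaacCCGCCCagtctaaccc
ITGA1: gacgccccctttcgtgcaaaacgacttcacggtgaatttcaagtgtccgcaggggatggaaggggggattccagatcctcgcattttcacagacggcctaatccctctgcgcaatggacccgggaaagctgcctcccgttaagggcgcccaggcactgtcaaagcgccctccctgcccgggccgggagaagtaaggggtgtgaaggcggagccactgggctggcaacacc
ITGB6: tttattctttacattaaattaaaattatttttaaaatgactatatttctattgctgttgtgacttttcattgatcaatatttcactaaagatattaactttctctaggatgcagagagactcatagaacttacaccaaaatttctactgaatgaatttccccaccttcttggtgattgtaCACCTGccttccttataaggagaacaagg
ITGA4: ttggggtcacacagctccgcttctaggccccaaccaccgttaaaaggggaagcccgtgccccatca
Capitals mark matches to the GC box (GGGCGG or CCGCCC), the AP-1 motif (TGANTCA, its own reverse complement) or the E2 box bound by factors of the Snail and ZEB type (CAGGTG or CACCTG). In the 250 bases before the RefSeq start, 1 of the 4 had a GC box (ITGA5), 1 had an E2 box (ITGB6) and none had the AP-1 letters. Of all 35116 windows of that length in the table, 42.6% held a GC box, 17.5% an E2 box and 6.57% the AP-1 motif. ITGB2 and ITGB4, the members that fell, are named only. No motif was shared by the 4 genes, and the matches are a description of the letters only.

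The alpha chains of the laminin receptors were high in both groups. ITGA6 was at 256, 317 and 245 CPM in shCdGAP libraries and at 287, 281 and 274 CPM in shCon libraries, and the groups overlapped. Its log2 fold change was -0.04, SE 0.0911 (edgeR, adjusted p = 0.728). This value rested on replicate 2 of shCdGAP, without which it was -0.17 with an adjusted p of 5.26e-07. ITGA3, which pairs with ITGB1 to bind the laminins LM332 and LM511, was at 254, 296 and 248 CPM against 309, 316 and 317 CPM. Every shCdGAP library was lower, yet the log2 fold change of -0.24 had an adjusted p of 0.0107 by edgeR, just outside the threshold. Without replicate 2 it was -0.33, with an adjusted p of 1.77e-14. For ITGA3, ITGA6 and LAMB1 below, the adjusted p without replicate 2 leaves out spread that was observed within the group and is not stronger evidence. ITGA7, a laminin receptor chain of muscle, was near 1 CPM in both groups, with 39 to 61 reads per shCdGAP library and 27 to 35 per shCon library (adjusted p = 0.0199 by edgeR).

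ITGAV, the alpha chain shared by several beta chains, was at 187, 174 and 179 CPM in shCdGAP libraries and 223, 213 and 212 CPM in shCon libraries. It fell by 0.26 on the log2 scale (SE of 0.0392; edgeR, adjusted p = 0.000407), and the groups did not overlap. ITGA2B, the platelet alpha chain, had 28 to 55 reads in shCdGAP and 21 to 23 in shCon libraries, with an adjusted p of 0.0123. ITGAE, whose product binds E-cadherin, was at 14.7 ± 1.17 and 13.8 ± 0.578 CPM (SD, n = 3 each), with an adjusted p of 0.317 by edgeR.

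The remaining alpha chains could not be tested. ITGA8, ITGA9, ITGA11, ITGAL, ITGAM and ITGAX each had at most 5 reads in any library. These include the alpha chains that mark lymphocytes (ITGAL) and myeloid cells (ITGAM and ITGAX).

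The largest decrease of any member was that of ITGB4. The gene (ENSG00000132470, chromosome 17 from 75721328 to 75757818, plus strand) encodes the hemidesmosomal beta chain, which pairs only with ITGA6 and has a long cytoplasmic tail that binds plectin and so keratin filaments. It was at 11.9, 27.4 and 11.7 CPM in shCdGAP libraries and at 221, 235 and 249 CPM in shCon libraries. Replicate 2 of shCdGAP was 2.32 times the mean of the other 2 libraries of its group and still far below every shCon library. Means were 17.0 ± 8.99 and 235 ± 14.0 CPM (SD, n = 3 each), and the log2 fold change came to -3.78, SE 0.378 (edgeR, adjusted p = 0.000685), or -4.33 without shCdGAP replicate 2.

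ITGB2 (ENSG00000160255, chromosome 21 from 44885953 to 44931989, minus strand), the beta chain of leukocyte integrins, also fell. Its levels were 1.92, 3.12 and 1.599 CPM in shCdGAP libraries and 11.5, 13.1 and 13.5 CPM in shCon libraries. The groups lay far apart, with replicate 2 again the nearest to the controls. The log2 fold change was -2.50, SE 0.205 (edgeR, adjusted p = 1.78e-05). Its leukocyte partners ITGAL, ITGAM and ITGAX had at most 5 reads in any library.

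The beta chains that pair with ITGAV to bind RGD ligands and latent TGFβ changed in opposite directions. ITGB6 (ENSG00000115221, chromosome 2 from 160099666 to 160271888, minus strand), an epithelial chain, was at 6.26, 7.11 and 6.31 CPM in shCdGAP and 2.26, 2.79 and 2.54 CPM in shCon libraries, a log2 fold change of 1.37, SE 0.118 (edgeR, adjusted p = 1.41e-05). ITGB8 was at 21.9, 23.3 and 21.8 CPM against 44.05, 44.7 and 43.2 CPM. It fell by 0.97 on the log2 scale (SE of 0.0472; edgeR, adjusted p = 4.34e-07), just short of the fold limit, with very little spread within either group. Per kilobase, the level of ITGB6 was 0.680 to 0.727 of that of ITGB8 in cells with shCdGAP and 0.122 to 0.149 with shCon.

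ITGB1, the most abundant beta chain and the partner of most alpha chains, was at 496, 484 and 500 CPM in shCdGAP libraries and at 618, 646 and 621 CPM in shCon libraries. It fell by 0.35 on the log2 scale (SE of 0.0346; edgeR, adjusted p = 3.33e-05), and replicate 2 did not stand apart. ITGB5, which binds vitronectin with ITGAV, was at 43.5 ± 2.46 and 46.7 ± 2.20 CPM (SD, n = 3 each) and overlapped between the groups (adjusted p = 0.155). ITGB3 was near 1 CPM in both groups and overlapped as well (adjusted p = 0.779), and its count is incomplete because 51.6% of its exonic bases are shared with another gene on the same strand. ITGB7, a lymphocyte chain, had 4 to 15 reads per library and was not tested.

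**Figure D2:**
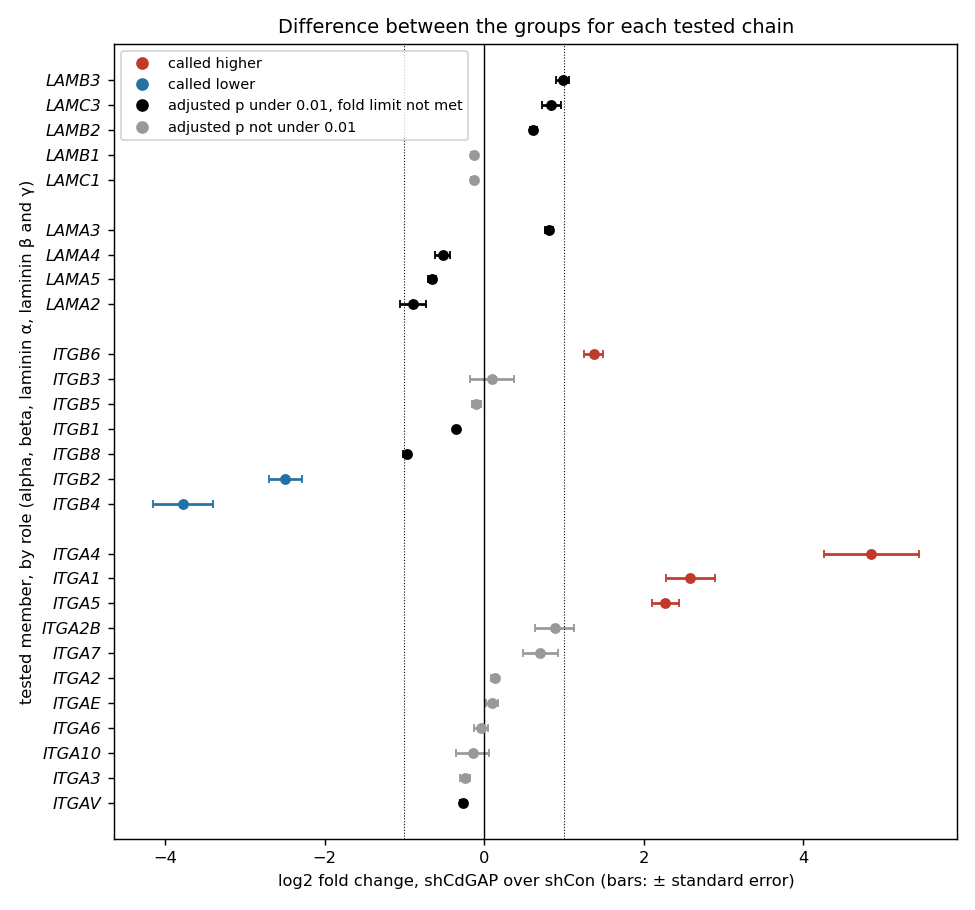
Log2 fold change (shCdGAP over shCon) of each tested chain with its standard error, ordered within integrin alpha, integrin beta, laminin alpha, and laminin beta and gamma chains, with dotted lines at -1 and 1. ITGB4 at -3.78 and ITGB2 at -2.50 lie far to the left and ITGA1 at 2.58 and ITGA5 at 2.27 to the right; the point for ITGA4 rests on 2 shCon reads and depends on the prior count.

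Levels of different chains were compared per length, as CPM per kilobase of annotated exon (RPKM). In shCon cells the order of the beta chains was ITGB1 (105 ± 2.54 RPKM), ITGB4 (34.8 ± 2.07), ITGB5 (7.24 ± 0.341), ITGB8 (2.90 ± 0.0496), ITGB2 (1.87 ± 0.160), ITGB6 (0.398 ± 0.0418), ITGB3 (0.301 ± 0.119) and ITGB7 (0.0267 ± 0.00539), all SD with n = 3. Neighbours in this order were separate in every library except ITGB6 and ITGB3. In shCdGAP cells ITGB4 came after ITGB5, at 2.51 ± 1.33 against 6.75 ± 0.382 RPKM, and ITGB6 passed ITGB2, at 1.03 ± 0.0751 against 0.326 ± 0.118 RPKM. ITGB2 and ITGB3 were not separate there. ITGB1 made up 67.6% to 69.4% of the summed beta chain level in shCon libraries and 84.7% to 88.2% in shCdGAP libraries, while ITGB4 went from 22.1% to 24.1% down to 1.83% to 4.26%.

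The order of the 5 most abundant alpha chains was the same in both groups, with ITGA6 first, then ITGA3, ITGAV, ITGA2 and ITGA5, each separate from the next in every library. ITGA5 was at 2.34 ± 0.0907 RPKM in shCon and 11.3 ± 2.60 RPKM in shCdGAP cells (SD, n = 3 each). Its share of the summed alpha chain level was 1.84% to 2.04% in shCon libraries and 8.48% to 10.6% in shCdGAP libraries. The laminin-binding chains together held 62.2% to 62.9% in shCon and 56.0% to 59.0% in shCdGAP libraries, the RGD-binding chains 23.8% to 24.3% and 26.7% to 28.2%, and the collagen-binding chains 11.2% to 11.7% and 12.8% to 13.7%. None of these ranges overlapped between the groups. The summed alpha chain level itself was 112 to 134 RPKM in shCdGAP and 118 to 121 RPKM in shCon libraries, and the summed beta chain level 94.2 to 95 and 148 to 155 RPKM. Thus the total of alpha chains overlapped between the groups and that of beta chains did not.

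Of 23 known pairs formed by these chains, 15 had both chains tested. In the 9 tested pairs of ITGB1 the alpha chain was the lower of the pair in every library. The level of the lower chain was 4.82 times that of shCon cells for ITGA5-ITGB1, 5.99 times for ITGA1-ITGB1, 1.09 times for ITGA2-ITGB1, 0.848 times for ITGA3-ITGB1 and 0.973 times for ITGA6-ITGB1. These numbers carry the replicate spread of the alpha chains given above. Summed over all its partners, the alpha chain level was 1.09 to 1.16 times that of ITGB1 in shCon and 1.32 to 1.64 times in shCdGAP libraries. For ITGA6-ITGB4 the beta chain was the lower one, and its level was 0.745, 0.809 and 0.881 of that of ITGA6 in shCon libraries but 0.0449, 0.0833 and 0.0460 in shCdGAP libraries. The RNA of the 2 chains of the hemidesmosomal receptor was thus near to equal in shCon cells and far from it in shCdGAP cells. For ITGAV with ITGB3, ITGB5, ITGB6 or ITGB8 the beta chain was the lower one, and the lower level was 2.59 times that of shCon cells with ITGB6, 0.509 times with ITGB8, 0.933 times with ITGB5 and 1.05 times with ITGB3.

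**Figure D3:**
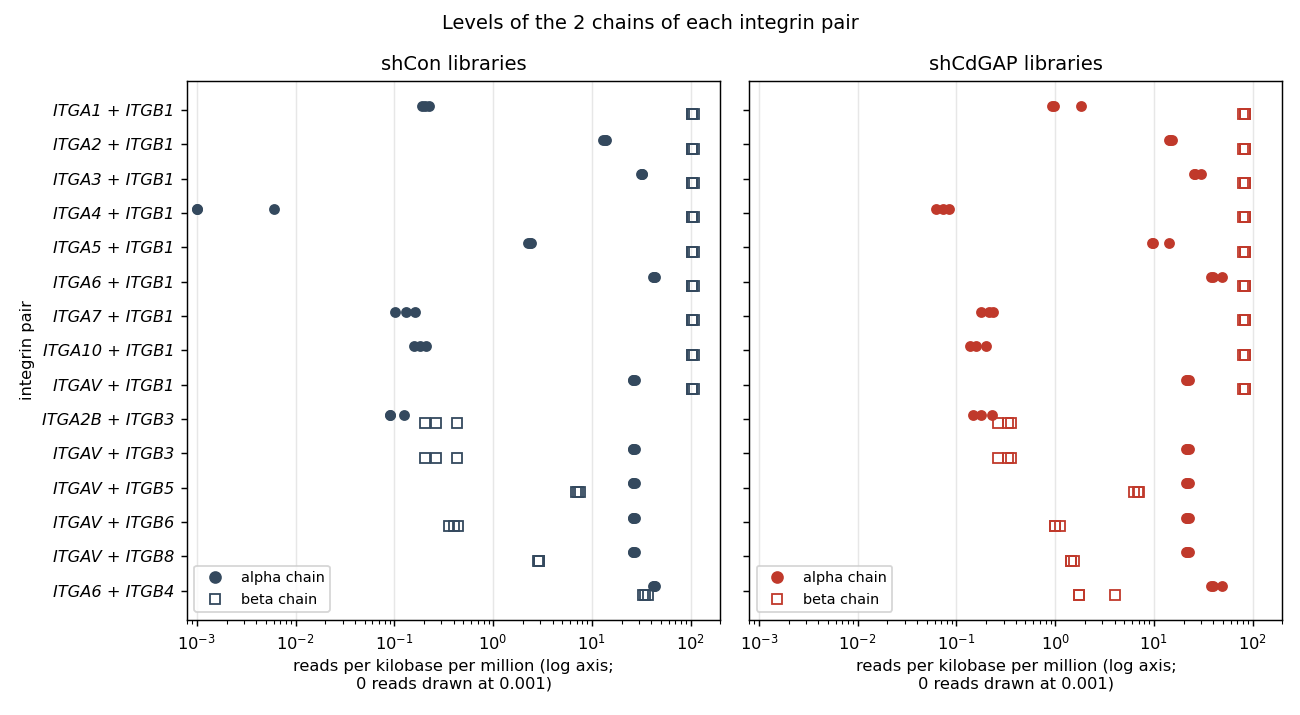
RPKM (log axis) of the alpha chain (filled circles) and the beta chain (open squares) of each integrin pair with both chains tested, in the 3 shCon libraries (left) and the 3 shCdGAP libraries (right). In the bottom row ITGA6 and ITGB4 lie close together in shCon libraries, with ratios of beta to alpha from 0.745 to 0.881, and far apart in shCdGAP libraries, from 0.0449 to 0.0833.

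Among the laminin alpha chains, LAMA3 rose and LAMA5, LAMA4 and LAMA2 fell. LAMA3 (ENSG00000053747, chromosome 18 from 23689443 to 23955066, plus strand), the alpha chain of the epithelial laminins including LM332 of hemidesmosomes (named by its alpha, beta and gamma chain numbers), was at 163, 177 and 159 CPM in shCdGAP and at 97.1, 93.8 and 93.7 CPM in shCon libraries. The log2 fold change was 0.81, SE 0.0465 (edgeR, adjusted p = 1.19e-06), below the fold limit. LAMA5 (ENSG00000130702, chromosome 20 from 62307955 to 62367312, minus strand), the alpha chain of LM511 and LM521 in most adult epithelia, was at 155, 175 and 155 CPM against 263, 243 and 259 CPM. It fell by 0.66 on the log2 scale (SE of 0.0553; edgeR, adjusted p = 1.24e-05).

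LAMA4, the alpha chain of vascular and mesenchymal laminins, was at 41.0, 50.6 and 39.2 CPM in shCdGAP and 61.4, 65.8 and 60.9 CPM in shCon libraries, and fell by 0.52 (adjusted p = 0.00138 by edgeR). LAMA2, best known from muscle, was at 1.87, 2.64 and 1.92 CPM against 3.62, 4.45 and 3.96 CPM and fell by 0.90 (adjusted p = 0.00131). For both genes shCdGAP replicate 2 was the library nearest to the controls, and without it LAMA2 fell by 1.09 and met the fold limit. LAMA1, a chain of the embryonic basement membrane, had at most 1 read in any library.

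Per kilobase the ranking of the 2 leading laminin alpha chains changed. LAMA5 was at 17.8 ± 0.719 and LAMA3 at 7.01 ± 0.141 RPKM in shCon cells, and at 11.3 ± 0.818 and 12.3 ± 0.699 RPKM in shCdGAP cells (SD, n = 3 each). LAMA5 was 2.45 to 2.61 times LAMA3 in shCon libraries and 0.898 to 0.936 times in shCdGAP libraries. As a share of the 5 alpha chains, LAMA3 went from 22.6% to 23.1% up to 43.7% to 45.3%, and LAMA5 from 56.6% to 59.0% down to 40.7% to 41.4%.

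The beta chains LAMB3 and LAMB2 rose and LAMB1 did not pass the test. LAMB3 (ENSG00000196878, chromosome 1 from 209614870 to 209652466, minus strand), which with LAMA3 belongs to LM332, was at 226, 271 and 215 CPM in shCdGAP and 116, 122 and 122 CPM in shCon libraries. The log2 fold change was 0.99, SE 0.0820 (edgeR, adjusted p = 2.28e-05), at the edge of the fold limit, with values from 0.87 to 1.04 on omitting single libraries. LAMB2, the beta chain of laminins at synapses and in the kidney filter, was at 146, 147 and 145 CPM against 95.1, 90.3 and 101 CPM, a log2 fold change of 0.61, SE 0.0449 (edgeR, adjusted p = 5.23e-06). LAMB1, the most widespread beta chain, was at 216 ± 10.01 and 235 ± 2.84 CPM (SD, n = 3 each), with an adjusted p of 0.0236 by edgeR, and of 2.85e-07 at a log2 fold change of -0.17 without shCdGAP replicate 2. Of the level of the 3 beta chains, LAMB3 held 36.9% to 38.3% in shCon and 49.7% to 54.1% in shCdGAP libraries.

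LAMC1, the gamma chain of most laminins, was at 108 ± 2.89 CPM in shCdGAP and 119 ± 2.41 CPM in shCon cells (SD, n = 3 each), with an adjusted p of 0.0120 by edgeR. The 2 groups were separate by a small margin. LAMC3, a minor gamma chain, was at 3.82, 4.47 and 4.16 CPM against 2.12, 2.42 and 2.42 CPM, a log2 fold change of 0.84, SE 0.122 (edgeR, adjusted p = 0.000345). LAMC3 (ENSG00000050555) lies on chromosome 9 from 131009082 to 131094473, and the 20 tested genes nearest to it, 10 on each side, had a median log2 fold change of -0.54, with 18 of them lower in shCdGAP cells. For the other 26 tested members the corresponding median lay between -0.18 and 0.32, so LAMC3 was the only member among neighbours that were lower by more than that.

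**Figure D4:**
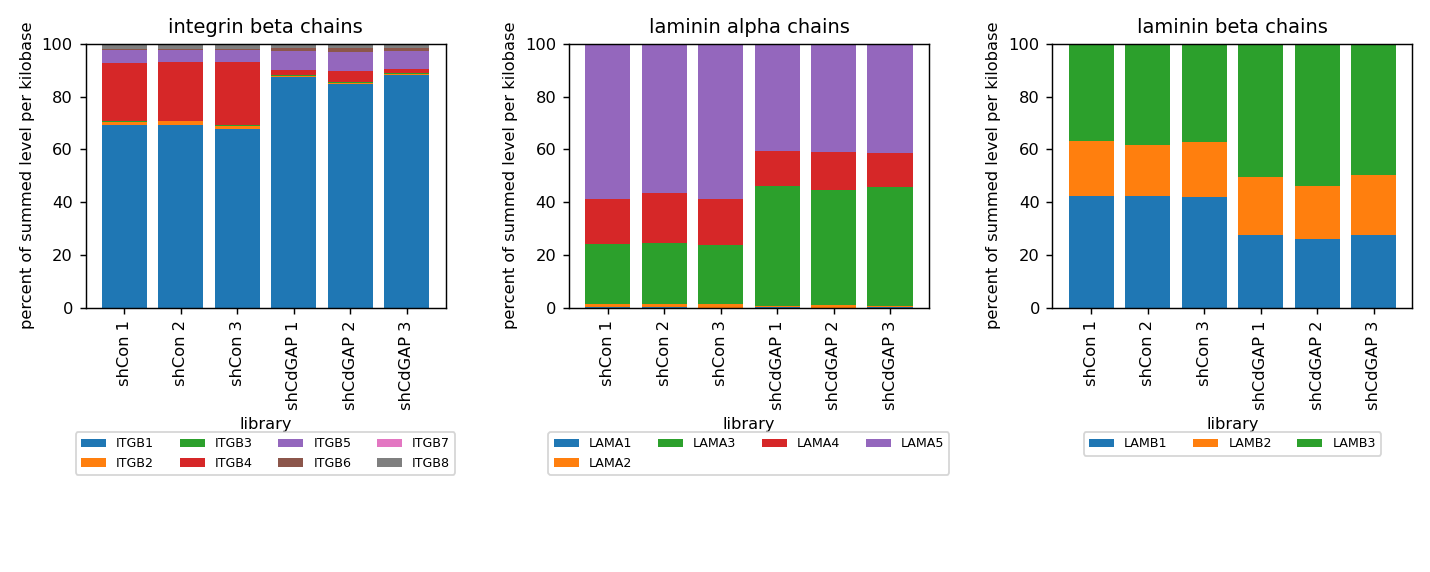
Share (percent) of each chain in the summed level per kilobase of the integrin beta chains (left), the laminin alpha chains (middle) and the 3 laminin beta chains examined (right), one bar per library. In the shCdGAP libraries ITGB4 takes 1.83% to 4.26% of the beta chain level in place of 22.1% to 24.1%, and LAMA3 takes 43.7% to 45.3% of the laminin alpha level in place of 22.6% to 23.1%.

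Of 13 laminin trimers that can be formed from these chains, 11 had every chain tested. For the trimers of LAMA3 with LAMB1 or LAMB2 and LAMC1 (LM311 and LM321) the lowest chain was LAMA3 in every shCon library, and LAMA3 or LAMC1 in shCdGAP libraries, which were not separate there. The lowest-chain level of both was 12.3 ± 0.617 RPKM in shCdGAP cells (SD, n = 3) and 1.75 times that of shCon cells. For LM511 the lowest chain was LAMC1 in shCon libraries and LAMA5 in shCdGAP libraries, and the lowest-chain level was 0.802 times that of shCon cells. For LM521 it was 0.833 times. LAMA4 was the lowest chain of LM411 and LM421, at 0.695 times, and LAMA2 that of LM211 and LM221, at 0.534 times. The trimers with LAMC3 differed in direction, at 1.79 times for LM423 and LM523, both with LAMC3 as the lowest chain, and 0.696 times for LM213. The lowest chain of LM213 was LAMC3 in shCon and LAMA2 in shCdGAP cells. Each trimer was taken alone, although many share LAMC1, and assembly was not tested. LM332 was examined through LAMA3 and LAMB3, both higher in each shCdGAP library; its gamma chain was not analysed here. LAMB3 was 3.45 to 3.77 times LAMA3 per kilobase in shCon and 3.90 to 4.42 times in shCdGAP libraries.

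The libraries of one group did not vary alike. The ratio of shCdGAP replicate 2 to the mean of replicates 1 and 3 was 2.32 for ITGB4, 1.89 for ITGA1, 1.77 for ITGB2 and 1.46 for ITGA5, and 1.01 to 1.13 for ITGA2, ITGB5, ITGB6, ITGB8, LAMA3, LAMB1, LAMB2, LAMC1 and LAMC3. Its median was 1.13 over the tested members, and the corresponding median for shCon replicate 2 was 1.00. Replicate 2 was nearer to the controls than the other libraries for ITGB4 and ITGB2 and farther from them for ITGA1 and ITGA5. Leaving it out ended none of the 6 calls.

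Genes that work with these receptors were read from lists of adaptors, other ligands and basement membrane partners. These lists too were chosen with earlier results of these data known. Of 48 adaptor and signalling genes at the inner face of integrins, 45 were tested, 5 were called higher and 4 lower, together 20% of those tested against 12.8% of all genes, and their median log2 fold change was -0.04. One of those called higher, TNS1, had 80, 90 and 78 reads in shCdGAP libraries and 0, 1 and 0 in shCon libraries. It passed the filter on low counts only through the shCdGAP libraries, so a difference was built into its place in this count. With at least 10 reads required in every library, 8 adaptor genes were called. FLNC, an actin crosslinker that binds beta chain tails, rose from 35.8 ± 1.44 to 115 ± 3.75 CPM (SD, n = 3 each). The exchange factors for Rac1 and Cdc42 of the PIX family moved apart, with ARHGEF6 at a log2 fold change of 1.94 (adjusted p = 3.17e-08 by edgeR) and ARHGEF7 at -1.56 (adjusted p = 4.59e-08). ARHGEF7 lies on chromosome 13 among 20 neighbours with a median log2 fold change of -1.58. KANK2, which binds talin at the rim of adhesions, fell from 192 ± 4.11 to 72.1 ± 7.63 CPM. TNS4, a tensin that binds beta chain tails, was at 8.34 ± 5.82 CPM in shCdGAP and 51.4 ± 1.52 CPM in shCon cells (SD, n = 3 each) and fell, at a log2 fold change of -2.60, or -3.37 without shCdGAP replicate 2, the library in which TNS4, like ITGB4, was nearest to the controls.

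Among 42 genes for other integrin ligands, 31 were tested, 8 were called higher and 1 lower, together 29% against the same 12.8%, and the median log2 fold change was 0.38. The gene called lower, THBS2, had 2, 16 and 4 reads in shCdGAP libraries and 25, 46 and 25 in shCon libraries. It passed the filter on low counts only through the shCon libraries, so a difference was built into its place in this count. With at least 10 reads required in every library, 6 ligand genes were called. COL1A1, a chain of the type I collagen bound by ITGA1 and ITGA2, rose from 17.99 ± 0.890 to 57.1 ± 1.85 CPM (SD, n = 3 each). COL1A2, the partner chain in the same list, did not rise with it. Without shCdGAP replicate 2 the log2 fold change was -0.05 for COL1A2 and 1.63 for COL1A1. FBN1, a microfibril protein with an RGD motif, rose from 16.1 ± 0.700 to 47.6 ± 2.09 CPM, and LTBP1, which stores latent TGFβ in the matrix, from 57.2 ± 2.09 to 140 ± 17.7 CPM. NPNT, a ligand of ITGA8, rose from 36.6 ± 2.01 to 81.0 ± 6.26 CPM while its receptor chain had at most 2 reads in any library. JAM3, a junction protein bound by leukocyte integrins, had a log2 fold change of 5.98, SE 0.183 (edgeR, adjusted p = 3.96e-08). VCAM1, the ligand of ITGA4 and named here for that reason, was at 5.16 ± 0.734 CPM in shCdGAP and 0.167 ± 0.0625 CPM in shCon cells (SD, n = 3 each). Like ITGA4, VCAM1 passed the filter on low counts only through the shCdGAP libraries, so a difference was built into its being tested.

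Among 32 basement membrane genes and their receptors, 27 were tested, 7 were called higher and 2 lower, together 33.3% against 12.8%, and the median log2 fold change was 0.23. LAD1, encoding ladinin 1, an anchoring protein of the basement membrane zone, rose from 6.88 ± 0.0779 to 66.2 ± 1.36 CPM (SD, n = 3 each). The nidogens, which tie laminin to type IV collagen, rose together, NID1 by a log2 fold change of 1.26 and NID2 by 1.32, and NTN4, a laminin-related netrin, rose by 1.51. COL4A1, the main chain of type IV collagen, fell by 1.30 on the log2 scale (adjusted p = 3.79e-07 by edgeR). It lies on chromosome 13 among 20 neighbours with a median log2 fold change of -1.56, so its fall was no larger than that of the genes around it.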

How the data were processed

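For 3 shCdGAP and 3 shCon PC-3 samples the authors deposited one table each of raw counts per gene, aligned with STAR 2.5.1b to GRCh38 and counted with featureCounts (1.6.0 in the table headers, 1.4.6 in the methods) on the Ensembl release 77 annotation, strand-specifically and as read pairs per the headers, although the methods name a single-read kit. Reads in exons shared by genes of one strand were not counted. Symbols were matched for 56105 of 64253 genes (87.3%). Counts were tested with edgeR 4.0.16 (filterByExpr, TMM with factors from 0.987 to 1.01, robust quasi-likelihood F test) in R 4.3.3. Thresholds were those of the study. CPM values are counts over TMM-scaled library totals, and RPKM divides these by the deposited length of all exons, which understates genes with long alternative exons. Standard errors (SE) were taken as |log2 fold change|/√F. The groups came from the sample titles, and the 3 samples per group are independent according to the methods. All 35 members were described. From each list up to 5 called genes were named, those of largest change whose mean log2 CPM reached 3. VCAM1, TNS1, THBS2, COL1A2 and the markers were named in addition. Members and lists were chosen with earlier results of these data known. No p-value was computed for pairs, trimers or shares, as 3 against 3 samples cannot give an exact two-sided permutation p below 0.1. Alternatives were DESeq2 1.42.0, other scalings, filters and thresholds, a block for replicate number, and omission of single libraries. Depth limits genes with few reads, and intervals cover counting error only.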

Additional observations from a re-analysis of the deposited data

How the results depend on the processing

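Of 350 repeats of the 27 tested members' log2 fold changes, 330 kept their direction and their side of the threshold, 12 newly passed an adjusted p of 0.01, 6 passed only because the threshold was raised to 0.05, no member lost its adjusted p and 2 turned: ITGA6 to 0.02 (edgeR, adjusted p = 0.84) without shCdGAP replicate 3 and ITGB3 to -0.14 (adjusted p = 0.682) without shCon replicate 2. Over single omitted libraries ITGA6 ranged from -0.17 to 0.02 and ITGB3 from -0.14 to 0.41. Members called higher numbered 8 and called lower 8 with no limit on the fold, in place of 4 and 2, and 3 and 2 when tested against a log2 fold change of 1 (glmTreat). Leaving out each library gave 4 to 5 higher and 2 to 4 lower, the 4 being without shCdGAP replicate 2, where ITGB8 and LAMA2 met the fold limit. Called adaptors numbered 27, ligands 24 and basement membrane genes 21 with no fold limit, and 5, 5 and 4 by glmTreat, in place of 9 each; leaving out each library gave 6 to 10, 8 to 11 and 9 to 11. The 26 pairs and trimers moved by less than their replicate spread under TPM. The sample titles do not say whether replicate numbers pair the samples. Correlations of same-numbered deviations were 0.05, 0.07 and 0.07, and those of unlike-numbered ones lay between -0.11 and 0.05. The mitochondrial share was 1.12%, 0.616% and 1.46% in shCdGAP replicates 1, 2 and 3 and 0.920%, 0.594% and 1.14% in shCon replicates. Whether a batch followed the replicate number was not tested. With the replicate block 1 of 27 members changed its side, ITGA3 (log2 fold change -0.24, adjusted p = 0.00639 by edgeR), while the calls stayed at 4 higher and 2 lower. With the block, 1371 genes were called higher and 677 lower, against 1407 and 689 without it, and 658 and 340 by glmTreat. With at least 10 reads in every library ITGA4 could not be tested, and 8 adaptors, 6 ligands and 8 basement membrane genes were called. Over all genes this setting tested 14742 and called 954 higher and 490 lower. The cause of these changes was not tested.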
